A study of Saccharomyces cerevisiae with 4 samples.

Results

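The 7 genes described here encode proteins that work around TOR complex 2 (TORC2) at the yeast plasma membrane. YPK1, YPK2, PKH1, PKH2, SLM2, ORM1 and ORM2 were chosen by name, with earlier results of these data known. They are 7 of the 7127 features in each count file. TORC2 is built on the kinase Tor2, whereas Tor1, the kinase removed in this study, acts in TOR complex 1. TORC2 phosphorylates and activates Ypk1 and Ypk2, paired protein kinases of the AGC family. Pkh1 and Pkh2, the yeast counterparts of mammalian PDK1, phosphorylate the activation loop of the Ypk kinases. Slm2 and its paralog Slm1 are lipid-binding adaptors that bring Ypk kinases to TORC2. Orm1 and Orm2 are endoplasmic reticulum membrane proteins that inhibit serine palmitoyltransferase, the first enzyme of sphingolipid synthesis, and phosphorylation by the Ypk kinases relieves that inhibition.

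Poly(A) RNA was sequenced from Saccharomyces cerevisiae BY4741, a laboratory strain of the S288C background, and from a derivative in which TOR1 was replaced by kanMX4, a drug-resistance cassette. Both strains were MATa haploids that carried the auxotrophic alleles ura3-0, met15-0, leu2-0 and his3-1. They grew at 30 °C in minimal medium with 2% dextrose, ammonium sulfate and the supplements those alleles require, were collected in logarithmic growth at an optical density of 0.5 to 0.7, and have 4 h in their titles. There were 2 libraries per strain, and nothing in the labels says that they came from separate cultures or from more than 1 isolate of the deletion. The p-values therefore rest on a spread between libraries that may be technical.

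The libraries held 8060480 to 14446057 counts. TOR1, the deleted gene, was counted 635 and 357 times in the wild type and 0 and 1 times in its deletion. Markers of the MATa mating type had 2835 to 45795 counts per library and those of the MATalpha type 9 to 390. The quasi-likelihood test of edgeR, at a Benjamini-Hochberg adjusted p below 0.05, called 26.9% of 6197 tested genes higher and 24.9% lower in the deletion, 51.8% in all. For 78.9% of them both libraries of a strain lay on the same side of both of the other.

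The 7 genes lie on 7 different chromosomes of the R64 assembly (sacCer3), each as a single coding exon that overlaps no other gene of the RefSeq annotation. Some counted identifiers have no entry in that annotation, and overlap with those was not determined. YPK1 (YKL126W) is on the plus strand of chromosome XI, positions 205707 to 207749, and YPK2 (YMR104C) on the minus strand of chromosome XIII, 473420 to 475453. PKH1 (YDR490C) is on the minus strand of chromosome IV, 1431968 to 1434268, and PKH2 (YOL100W) on the plus strand of chromosome XV, 129237 to 132482. SLM2 (YNL047C) is on the minus strand of chromosome XIV, 539911 to 541881. ORM1 (YGR038W) is on the plus strand of chromosome VII, 560682 to 561350, and ORM2 (YLR350W) on the plus strand of chromosome XII, 828730 to 829380.

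Whether reads of paralogs could be exchanged was examined in the coding sequences. They were identical at 67.2% of aligned bases for YPK1 and YPK2, 62.3% for PKH1 and PKH2, and 65.7% for ORM1 and ORM2. The longest stretches shared without a mismatch were 15, 11 and 14 bases, and no 50-base window of any of the 7 genes occurred elsewhere in the genome. The stretches of the Ypk and Orm pairs are shown on the coding strand, from the 5′ end, because the strain difference within those pairs is described below. Capitals mark the shared run.
YPK1: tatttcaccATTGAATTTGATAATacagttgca
YPK2: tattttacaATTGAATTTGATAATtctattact
ORM1: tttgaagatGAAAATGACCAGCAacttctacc
ORM2: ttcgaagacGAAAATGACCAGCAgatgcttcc
The YPK1 segment is at chrXI:206337-206369 (+), that of YPK2 at chrXIII:474800-474832 (-), that of ORM1 at chrVII:560868-560899 (+) and that of ORM2 at chrXII:828901-828932 (+).

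In the deletion strain 4 of the 7 genes rose, YPK2, ORM2, PKH2 and YPK1, and none passed as lower. This stands beside 26.9% of all tested genes called higher and 24.9% called lower. The other 3, PKH1, SLM2 and ORM1, did not pass. Without wild-type library 1 fewer of the 7 were called higher, and fewer of all tested genes too. The median log2 fold change of deletion over wild type was 0.73 for the 7 genes and -0.02 for all tested genes. For 5 genes each deletion library exceeded each wild-type library, as for 38.6% of tested genes, and for 1 gene it was lower, as for 40.2%. The libraries are bulk RNA, in which fewer cells that express a gene and less RNA per cell cannot be told apart. Values below are counts scaled by library size with TMM factors (CPM), errors of fold changes are SE on the log2 scale, and adjusted p-values are from the edgeR quasi-likelihood test over all tested genes.

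**Figure D1:**
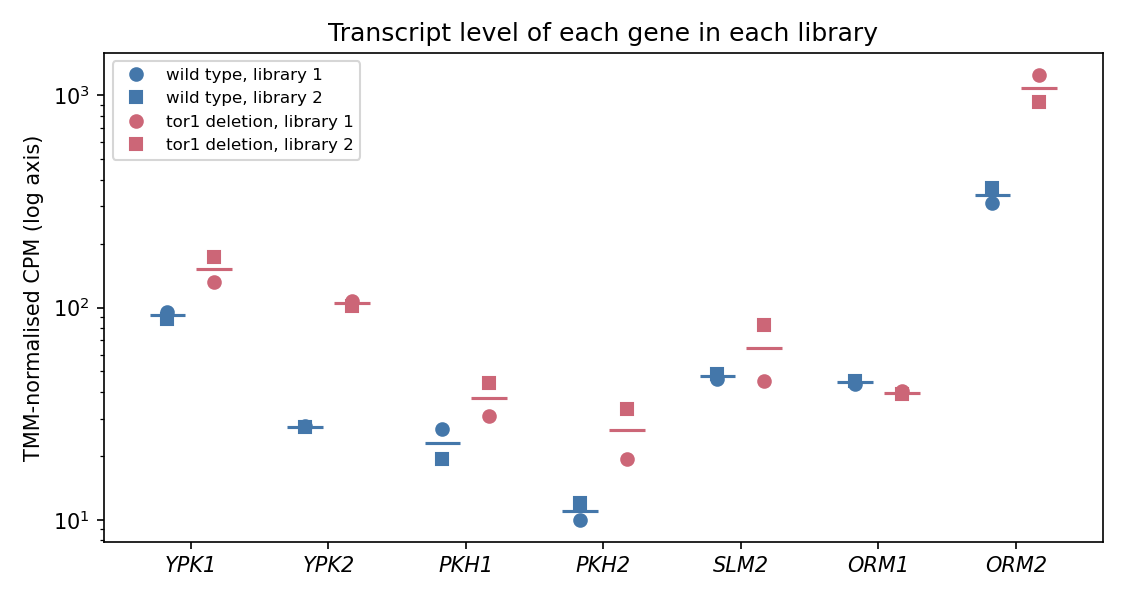
TMM-normalised CPM (log axis) of each gene in each of the 4 libraries, with horizontal lines at the strain means. The YPK2 and ORM2 libraries separate widely by strain, while the SLM2 libraries overlap and those of ORM1 lie close together.

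The Ypk kinases are direct targets of TORC2, and both of their genes rose. YPK2 measured 27.7 and 27.3 CPM in the wild-type libraries and 107 and 102 CPM in the deletion libraries. The libraries of each strain nearly coincided and the strains did not overlap. YPK2 rose 3.80-fold, with a log2 fold change of 1.93 ± 0.17 (adjusted p = 0.000268, n = 2 per strain), above the log2 fold change of 94.1% of tested genes. YPK1 measured 95.8 and 87.9 CPM in the wild type and 132 and 173 CPM in the deletion. Both deletion libraries were higher, with deletion library 2 above library 1. YPK1 rose 1.66-fold, with a log2 fold change of 0.73 ± 0.19 (adjusted p = 0.0177). That call ended when TMM was replaced by library totals (adjusted p = 0.135) or by upper quartile factors (0.167). It also ended without wild-type library 1 or 2, where the log2 fold change was 0.80 and 0.68. In those 2 fits the spread came from the deletion libraries alone, and calls over all genes fell too.

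Within the Ypk pair the share of counts that belonged to YPK2 was 22.4% and 23.7% in the wild-type libraries. In the deletion libraries it was 44.8% and 37.2%. The exact 95% Clopper-Pearson intervals, 20.6 to 24.3%, 21.3 to 26.2%, 42.4 to 47.3% and 35.3 to 39.1%, cover counting error only and do not overlap between strains. Per kilobase of coding sequence, the level of YPK2 was 0.291 and 0.312 of that of YPK1 in the wild type and 0.816 and 0.594 of it in the deletion. The ratio was thus 2.31-fold higher in the deletion, a difference of 1.21 in mean log2 ratio (SD 0.07 in the wild type and 0.32 in the deletion, n = 2). An exact 2-sided permutation test gave p = 0.333, the smallest value that 2 against 2 libraries allow.

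The Ypk genes also have corresponding neighbours. PGM1 and PGM2, which encode phosphoglucomutases, lie directly upstream of YPK1 and YPK2 on the same strand, at gaps of 453 and 443 bases. PGM2 went from 20.6 and 21.5 CPM to 654 and 1111 CPM, a log2 fold change of 5.39 ± 0.33 (edgeR adjusted p = 7.95e-05). PGM1 fell, with a log2 fold change of -0.55 ± 0.17 (edgeR adjusted p = 0.0324). The gene downstream of YPK2, the reading frame YMR103C at a gap of 155 bases on the same strand, rose by 1.44 ± 0.22 (edgeR adjusted p = 0.00207). RRN3, downstream of YPK1 and encoding an RNA polymerase I initiation factor, was at -0.25 ± 0.17 and did not pass. Whether reads were counted by strand and whether transcripts of these neighbours reach into the Ypk genes is not known here. The part of the neighbours in the YPK2 result was not tested.

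The Pkh kinase genes had the lowest levels of the 7 per kilobase of coding sequence, in each of the 4 libraries. PKH2 measured 10.0 and 12.0 CPM in the wild type, where it had 164 and 128 counts. In the deletion it measured 19.4 and 33.3 CPM, with 135 and 315 counts. The strains did not overlap, but the deletion libraries were farther from each other than the lower of them was from the wild type. PKH2 rose 2.41-fold, with a log2 fold change of 1.27 ± 0.31 (edgeR adjusted p = 0.0128). That call ended without wild-type library 1, where the log2 fold change was 1.14 and calls over all genes fell too. Leaving out 1 library gave 0.83 to 1.62. PKH1 measured 26.8 and 19.4 CPM in the wild type and 30.7 and 44.0 CPM in the deletion. The strains did not overlap, yet both spread widely, and the log2 fold change of 0.69 ± 0.26 did not pass (edgeR adjusted p = 0.0634). PKH1 was called higher by DESeq2 (adjusted p = 0.0487), by a likelihood ratio test (0.0367) and with a replicate block (0.0318), and not with upper quartile factors (0.359). It also passed without deletion library 1, a call in which the spread came from the wild type alone. Leaving out 1 library gave log2 fold changes of 0.40 to 0.96.

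PKH2 held 27.2% and 38.3% of the counts of the Pkh pair in the wild type, against 38.7% and 43.1% in the deletion. Wild-type library 2 and deletion library 1 were nearly equal, with Clopper-Pearson intervals of 33.1 to 43.8% and 33.5 to 44.0%. The mean log2 ratio of PKH2 to PKH1 was 0.52 higher in the deletion, against SDs of 0.52 and 0.19 (exact permutation p = 0.333). It was 0.15 higher without wild-type library 1 and 0.89 higher without wild-type library 2.

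**Figure D2:**
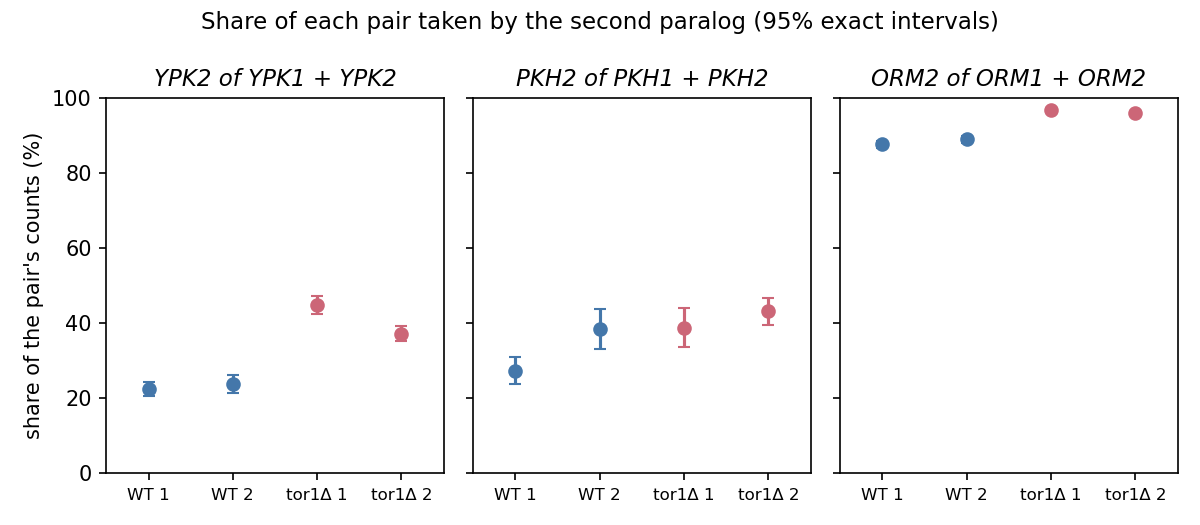
Share of the counts of each paralog pair (%) taken by the second gene, in each of the 4 libraries, with exact 95% binomial intervals that cover counting error only. The YPK2 share is 22.4 and 23.7% in the wild type, against 44.8 and 37.2% in the deletion, and the ORM2 share is high in all 4 libraries.

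SLM2, the adaptor gene, overlapped between strains. It measured 46.3 and 48.4 CPM in the wild type and 45.2 and 83.1 CPM in the deletion. Deletion library 1 was at the wild-type level and deletion library 2 above it. The log2 fold change was 0.44 ± 0.28 (edgeR adjusted p = 0.227). Without deletion library 1 it was 0.82, and without deletion library 2 it was -0.061, so that 1 library decided the value and its direction. SLM2 passed without deletion library 1, a call that rests on 1 deletion library with the spread taken from the wild type. It passed under no other alternative. SLM1, its paralog and not one of the 7, went from 26.8 and 25.7 CPM to 95.7 and 110 CPM, a rise of 1.97 ± 0.18 on the log2 scale (edgeR adjusted p = 0.000299). The coding sequences of SLM1 and SLM2 were identical at 61.7% of aligned bases, and the difference between their changes was not tested.

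The Orm genes, inhibitors of serine palmitoyltransferase, included the most abundant transcript of the 7, ORM2, and the one with the fold change nearest to 1, ORM1. ORM2 measured 310 and 366 CPM in the wild type and 1245 and 928 CPM in the deletion. The strains were well apart, and here deletion library 1 was the higher one. ORM2 rose 3.21-fold, with a log2 fold change of 1.68 ± 0.23 (edgeR adjusted p = 0.00139), above the log2 fold change of 92.2% of tested genes. ORM1 measured 43.7 and 44.9 CPM in the wild type and 40.5 and 39.0 CPM in the deletion. Both deletion libraries were below both wild-type libraries, by a small margin, and the log2 fold change of -0.16 ± 0.17 did not pass (edgeR adjusted p = 0.468). It passed as lower with upper quartile factors (adjusted p = 0.0281, the lowest over 12 alternatives, of which the highest was 0.835), a scaling that moved the median of all tested genes by -0.39. Relative to the median of all genes, ORM1 stood at -0.14 under all 3 of TMM, upper quartile and total-count scaling.

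ORM2 held 87.6% and 89.1% of the counts of the Orm pair in the wild type, against 96.8% and 96.0% in the deletion, with Clopper-Pearson intervals of 86.8 to 88.5%, 88.1 to 90.0%, 96.5 to 97.2% and 95.5 to 96.4%. Per kilobase, the ORM2 level was 7.27 and 8.37 times that of ORM1 in the wild type and 31.5 and 24.4 times in the deletion. The ratio was 3.55-fold higher in the deletion, a difference of 1.83 in mean log2 ratio against SDs of 0.14 and 0.26 (exact permutation p = 0.333). Neither of the nearest annotated genes on the 2 sides of ORM2, DIC1 and NIT3, passed, at log2 fold changes of 0.45 ± 0.24 and 0.07 ± 0.20. ACB1, upstream of ORM1 on the opposite strand and encoding acyl-CoA-binding protein, rose by 0.65 ± 0.17 (edgeR adjusted p = 0.0163).

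**Figure D3:**
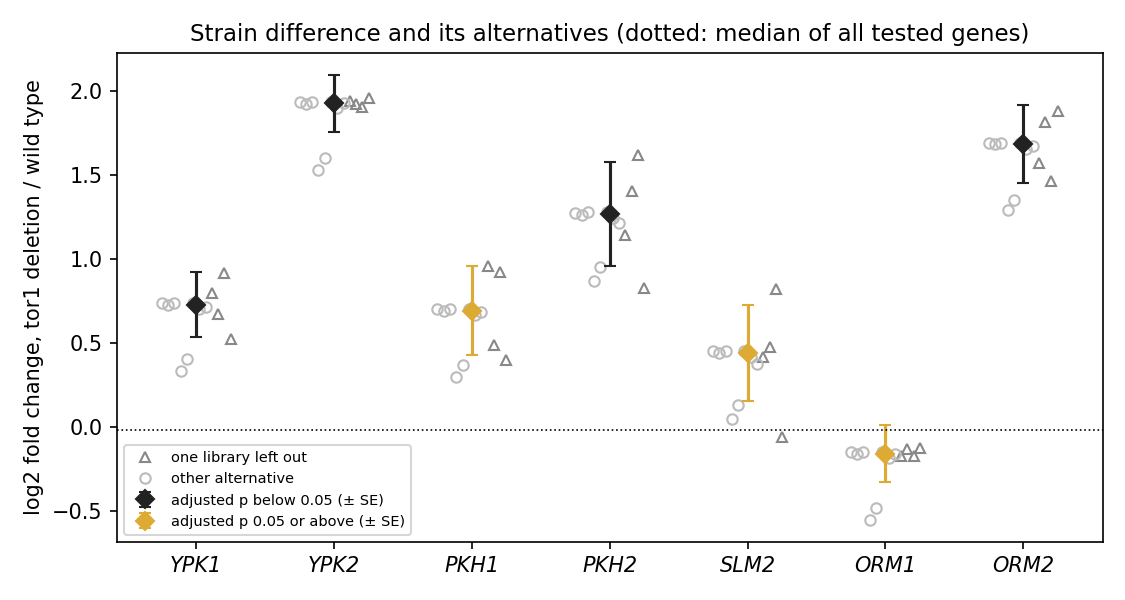
Log2 fold change of the deletion over the wild type for each gene (diamonds, ± SE), with the value under each of 12 alternatives (open symbols) and the median of all tested genes (dotted line). YPK2 and ORM2 lie above 1 under every alternative shown, whereas SLM2 crosses 0 when deletion library 2 is left out.

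Per kilobase of coding sequence the order of mean levels in the wild type was ORM2 at 519 ± 61.3 CPM per kilobase (SD, n = 2), ORM1 at 66.3 ± 1.28, YPK1 at 45.0 ± 2.72, SLM2 at 24.0 ± 0.76, YPK2 at 13.5 ± 0.15, PKH1 at 10.0 ± 2.30 and PKH2 at 3.40 ± 0.44. In the deletion the order was ORM2 at 1668 ± 344 CPM per kilobase, YPK1 at 74.5 ± 14.2, ORM1 at 59.4 ± 1.55, YPK2 at 51.4 ± 1.67, SLM2 at 32.5 ± 13.6, PKH1 at 16.2 ± 4.08 and PKH2 at 8.12 ± 3.04. The 2 libraries of a gene did not overlap those of the next gene in either order. YPK1 and ORM1 exchanged places, as did YPK2 and SLM2. In the deletion the means of YPK1 and ORM1 were apart by little more than the SD of YPK1.

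The 2 deletion libraries differed from each other by an amount that varied with coding length, though not steadily in 1 direction. Over all tested protein-coding genes the median of log2 CPM in deletion library 2 minus library 1 was -0.26 for coding sequences of up to 750 bases (1558 genes) and 0.01, 0.20 and 0.23 in the next 3 bins of 750 bases, up to 3000. For the 508 genes over 3000 bases, the bin of PKH2, it was back at -0.017. The wild-type medians, library 2 minus library 1, lay between -0.054 and 0.021 in the 5 bins. Among the 7 genes this difference was -0.42 for ORM2, -0.05 for ORM1, -0.07 for YPK2, 0.39 for YPK1, 0.52 for PKH1, 0.78 for PKH2 and 0.87 for SLM2. The values of SLM2 and PKH2 exceeded those of 92.4% and 94.5% of genes within 10% of their length. The strain difference, set against genes within 10% of the same length, exceeded that of 93.2% of them for YPK2, 92.5% for ORM2, 89.9% for PKH2, 76.3% for YPK1, 79.2% for PKH1, 66.4% for SLM2 and 43.7% for ORM1. The part of this length pattern in the results was not tested.

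**Figure D4:**
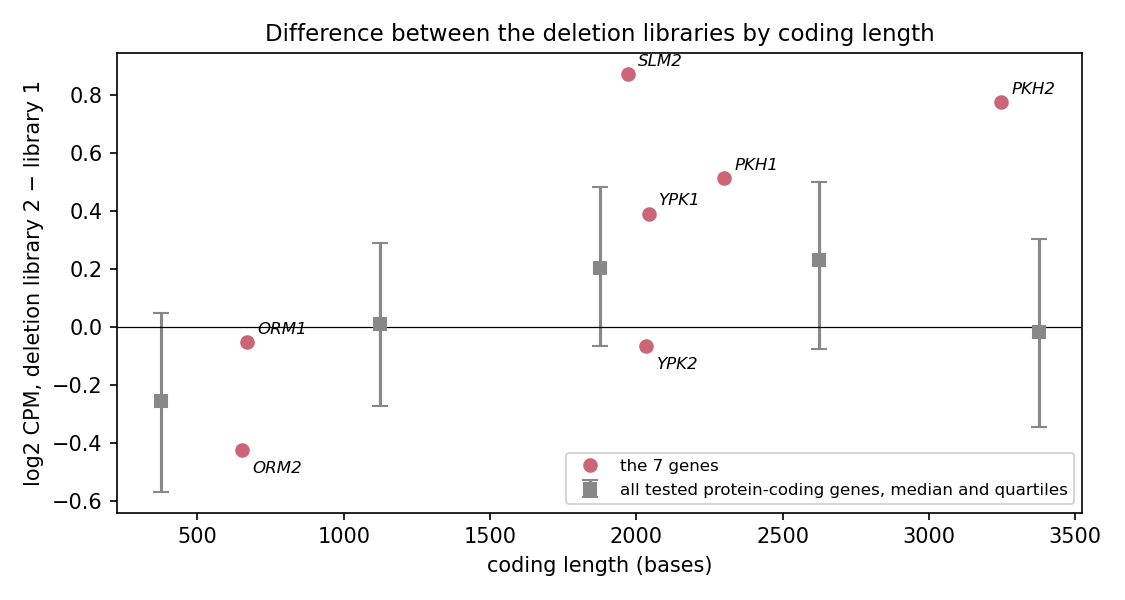
Difference in log2 CPM between deletion library 2 and deletion library 1 against coding length (bases), for the 7 genes (points) and for all tested protein-coding genes in length bins (squares, median and quartiles, the last bin holding all genes over 3000 bases). SLM2 and PKH2 lie above the quartiles of their bins at 0.87 and 0.78. PKH1, at 0.515, lies just above the upper quartile of its bin, 0.5, and the short ORM2 lies at -0.42.

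The upstream regions were searched on both strands for AGGGG, the stress response element bound by Msn2 and Msn4, general stress transcription factors. From 250 bases before the start codon to 50 after it, 2 of the 7 genes held it, PKH2 and YPK1, where 21.6% of 6001 protein-coding genes did. With 500 bases before the start codon the same 2 genes held it, against 34.1% of genes. The segments are shown on the strand of the gene, with the element or its reverse complement in capitals.
PKH2: acaaaggtacttAGGGGtatttaagaaca
YPK1: gatcaaaacatgCCCCTattggaaggctt
The PKH2 segment is at chrXV:129079-129107 (+), with the element 146 bases before the start codon, and the YPK1 segment at chrXI:205445-205473 (+), with the element 250 bases before it. These letters were not in the windows of YPK2, ORM2, PKH1, SLM2 and ORM1. Any link between the element and the strain differences was not tested. A match is a description of sequence, not of binding.

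Of 76 other genes of the pathway, listed in 7 groups that share some members, 30 rose (39.5%), 9 fell (11.8%) and 37 did not pass, where 26.9% of all tested genes were called higher and 24.9% lower. Their median log2 fold change was 0.32, against -0.02 for all tested genes. The 9 lower calls became 24 and 18 under upper quartile and total-count scaling. There 2508 and 2328 of 6197 tested genes were called lower, against 1543 with TMM. Lower calls were fewer with a wild-type library left out and more with a deletion library left out, as over all genes. Of 7 TORC2 subunit genes none rose and 2 fell, a share of 28.6% that is near the 24.9% of all genes, and the median was -0.16. TSC11, which encodes the Avo3 subunit, went from 157 and 183 CPM to 66.8 and 45.4 CPM, a log2 fold change of -1.60 ± 0.23 (edgeR adjusted p = 0.00159), and BIT61 was at -0.66 ± 0.20 (adjusted p = 0.029). With upper quartile factors 4 subunit genes fell, as lower calls over all genes grew too. The counts of rises and falls also moved with 1 library left out. TOR2, named after its value was seen, measured 46.5 and 59.0 CPM in the wild type and 74.0 and 52.7 CPM in the deletion, which overlapped (log2 fold change 0.26 ± 0.23, edgeR adjusted p = 0.36).

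Eisosomes are the plasma membrane furrows from which Slm adaptors move to TORC2 under membrane stress. Of 6 genes in this list, SLM1 among them, 5 rose (83.3%, against 26.9% of all genes) and the median was 2.13. This list, like the others, was chosen with earlier results of these data known. NCE102, a membrane protein of eisosomes, went from 398 and 440 CPM to 6116 and 6645 CPM, a 15.2-fold rise (edgeR adjusted p = 0.000104). LSP1 and PIL1, the core eisosome proteins, rose 13.3-fold and 4.93-fold (adjusted p = 0.000215 and 0.000263). SEG1, the 1 gene that did not pass and named after its value was seen, was at -0.08 ± 0.16. SLM1 was also named after its value was seen.

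Among 13 genes for other Ypk substrates and lipid flippases 4 rose and none fell, against 24.9% of all tested genes called lower, with a median of 0.29. The share that rose, 30.8%, is near the 26.9% of all genes. KIN82, which encodes the flippase-activating kinase also called Fpk2, went from 11.2 and 12.5 CPM to 132 and 122 CPM, a log2 fold change of 3.42 ± 0.19 (edgeR adjusted p = 6.29e-05). GPD1, glycerol-3-phosphate dehydrogenase, rose by 2.37 ± 0.20, and RGC1, a regulator of the glycerol channel Fps1, rose by 0.81 ± 0.16. The count of rises was 2 with upper quartile factors or with library totals, where 1110 and 1179 of 6197 tested genes were called higher. Falls numbered 4 under both of those scalings, where 2508 and 2328 of all tested genes were called lower, and 1 with the replicate block. Rises were fewer with a wild-type library left out and more with a deletion library left out, as over all genes. Falls appeared with a deletion library left out, where lower calls over all genes grew too.

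In sphingolipid metabolism 7 of 26 genes rose, the same 26.9% as over all tested genes, and 4 fell (15.4%, against 24.9% of all genes), with a median of 0.21. SUR1, a mannosyltransferase subunit for complex sphingolipids, rose 6.15-fold (edgeR adjusted p = 9.89e-05), and YDC1, a ceramidase gene, rose 3.60-fold (edgeR adjusted p = 0.000324). ELO3 and ELO2, the fatty acid elongases that supply very long acyl chains, fell, at log2 fold changes of -2.37 ± 0.18 and -2.33 ± 0.23. YSR3, a sphingoid base phosphate phosphatase gene, and LCB5, a sphingoid base kinase gene, also fell, at -0.57 ± 0.17 and -0.53 ± 0.18. LCB1 and LCB2, named after their values were seen as the subunits of serine palmitoyltransferase, did not pass, at 0.47 ± 0.22 and 0.38 ± 0.23. Falls numbered 2 with DESeq2, 7 under total-count scaling and 8 under upper quartile scaling. There 1455, 2328 and 2508 of 6197 tested genes were called lower. Rises and falls were fewer with a wild-type library left out and more with a deletion library left out, as over all genes.

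**Figure D5:**
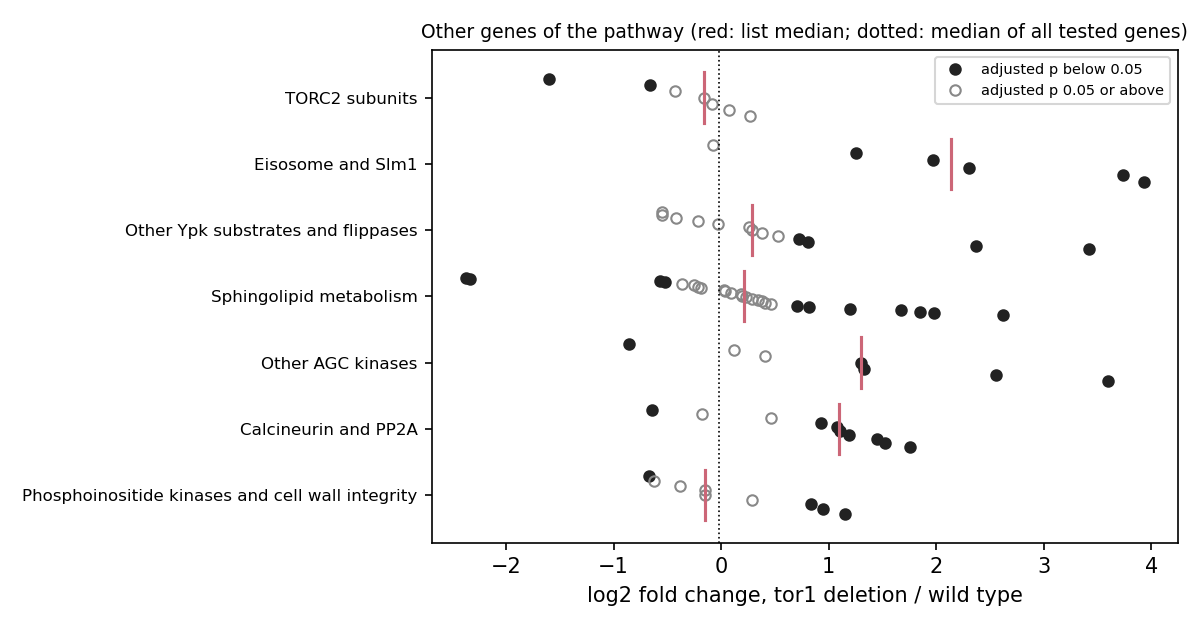
Log2 fold change of the deletion over the wild type for the other genes of the pathway by list (filled, adjusted p below 0.05; open, not), with list medians (red) and the median of all tested genes (dotted). The eisosome list has the highest median, 2.13. Among the TORC2 subunits TSC11 at -1.60 and BIT61 at -0.66 are called lower and none is called higher. The lists were chosen with earlier results of these data known.

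Of 7 genes for other AGC kinases 4 rose (57.1%, against 26.9% of all genes) and 1 fell (14.3%, against 24.9%), with a median of 1.30. TPK2, a catalytic subunit of protein kinase A, rose by 3.60 ± 0.20, and SCH9, a direct target of TOR complex 1, by 1.30 ± 0.25. TPK3, also a catalytic subunit gene, fell by 0.86 (SE 0.17). Of 10 genes for calcineurin and protein phosphatase 2A, phosphatases that counteract or modulate TORC2 signalling, 7 rose (70.0%) and 1 fell (10.0%), with a median of 1.09. CDC55 and RTS1, regulatory subunits of protein phosphatase 2A, rose by 1.76 ± 0.23 and 1.45 ± 0.19, and the calcineurin catalytic subunit gene CMP2 by 1.19 ± 0.19, while its paralog CNA1 fell by 0.64 (SE 0.21). In 9 genes for phosphoinositide kinases and cell wall integrity 3 rose (33.3%, near the share of all genes) and 1 fell (11.1%), with a median of -0.15. RHO1, a GTPase, MSS4, the lipid kinase that makes the phosphoinositide bound by the Slm adaptors, and ROM2, an exchange factor for Rho1, rose by 1.16 ± 0.18, 0.95 ± 0.16 and 0.83 ± 0.21. SLT2, the MAP kinase of the pathway, fell by 0.67 (SE 0.20). Falls in the last list numbered 3 under library totals, 5 under upper quartile factors, and 2 under the likelihood ratio test and the stricter count filter. Over all tested genes lower calls there numbered 2328, 2508, 1758 and 1505, against 1543 without those changes. With a wild-type library left out, falls in these 3 lists and rises in the last were fewer, as over all genes. With a deletion library left out, falls in the last list were more, again as over all genes.

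The tested gene whose log2 CPM profile over the 4 libraries, centred on its mean, lay closest to each of the 7 was sought by Euclidean distance. It was SNF1 for YPK1 (distance 0.01), PST2 for YPK2 (0.03), FLO10 for PKH1 (0.09), UTH1 for PKH2 (0.10), WHI4 for SLM2 (0.05), MPD2 for ORM1 (0.01) and HXT15 for ORM2 (0.09). HXT15 had 7 to 20 counts per library and belongs to a transporter family with near-identical copies, so its profile is uncertain. Between 193 and 1597 other genes lay within 0.5 of each of the 7, and 4 libraries do not single any of them out.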

How the data were processed

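The authors deposited 1 table of raw counts per library, in whole numbers, and these were used. Per the submitters' processing notes the tools were featureCounts, Subread and FastQC and the build sacCer3, and no versions are named. The sources used here do not give alignment settings, annotation release or use of strand. A deposited table of rescaled counts was not used. Positions, names and sequences came from the RefSeq annotation and genome of R64, the assembly that sacCer3 names, and 6047 of 7127 identifiers matched by systematic name and 41 by symbol. Protein sequences were not used.

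Genes kept by filterByExpr (6197) were scaled by TMM factors and tested with edgeR 4.0.16 (R 4.3.3), quasi-likelihood F test, with strain as the only term and Benjamini-Hochberg adjustment over all tested genes at 0.05. The script was tested on simulated data. The SE of a log2 fold change is its absolute value over the root of its F statistic. Ratios between paralogs used counts plus 0.5 and exact permutation tests. A count of 0 allows up to 3 counts, or 0.183 to 0.431 CPM. Libraries of 1 strain were not duplicates (chi-square per degree of freedom between them 19.1 in the wild type and 70.6 in the deletion).

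Named genes were the 7 members, the 3 passing genes per list with the smallest p, those called against the majority of their list, nearest neighbours in profile and adjacent genes. The values of 1 gene that this rule names are not reported here. Members, lists and rules were chosen with earlier results of these data known. Alternatives were DESeq2 1.42.0, a likelihood ratio test in edgeR, other factors and filters, a replicate block and each library left out. The 500-base promoter window was added after seeing the data. Sequence alignment used Biopython 1.88.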

Additional observations from a re-analysis of the deposited data

How the results depend on the processing

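YPK2 and ORM2 kept their direction and their call under all 12 alternatives, at log2 fold changes of 1.53 to 1.96 and 1.29 to 1.88. YPK1 no longer passed with upper quartile factors (0.33) or library totals (0.41), and leaving out 1 library gave 0.52 to 0.92. Leaving out 1 library gave 0.83 to 1.62 for PKH2, 0.40 to 0.96 for PKH1 and -0.061 to 0.82 for SLM2, whose sign changed without deletion library 2 (-0.061). PKH1 passed with DESeq2 (0.71), the likelihood ratio test (0.69) and the replicate block (0.69), and ORM1 passed as lower with upper quartile factors (-0.55). PKH2 lost its call without wild-type library 1, and YPK1 lost its call with either wild-type library left out. PKH1 and SLM2 passed without deletion library 1. Calls over all genes also moved in these fits. The cause of these changes was not tested. Upper quartile factors and library totals moved the median of all genes by -0.39 and -0.33, and relative to that median each of the 7 genes stayed within 0.014 of its TMM value. The number of the 7 called higher was 2 to 6 when 1 library was left out, and 2 without wild-type library 1, and the number called lower was 1 with upper quartile factors. Leaving out 1 library gave 1960 to 4460 calls over all genes. Lower calls among the 76 pathway genes numbered 24 with upper quartile factors, 18 with library totals and 3 to 17 with 1 library left out. Of 168 recounts of single lists 132 stayed within 1.5 times the count given, and 36 did not, 20 above and 16 below it.

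Nothing in the labels says whether same-numbered libraries share more than a number. Their deviations from the strain means correlated at -0.07 across genes. With 2 libraries per strain this value cannot decide whether they shared a culture day or batch. The replicate block changed no call among the 7 other than that of PKH1. With 1 library left out the lone library of a strain is assumed to vary like the other strain. Depth limits PKH2 most, at 128 to 315 counts per library.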

Other observations

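The count files hold 3 identifiers without an entry in the annotation whose systematic names place them next to PKH1, PKH2 and ORM2. YDR491C, beside PKH1, measured 5.67 and 4.80 CPM in the wild type and 4.45 and 4.87 CPM in the deletion, which overlap. YOL099C, beside PKH2, had 2 to 18 counts per library, or 0.671 and 1.69 CPM in the wild type and 0.575 and 0.212 CPM in the deletion. YLR349W, beside ORM2, measured 8.11 and 7.52 CPM in the wild type and 3.16 and 2.75 CPM in the deletion. Whether they overlap these genes was not determined.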
